A study of Mus musculus with 24 samples.

Results

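The cytosolic chaperonin CCT, also called TRiC, was followed through T cell activation by the transcripts of its 8 subunits, Tcp1, Cct2, Cct3, Cct4, Cct5, Cct6a, Cct7 and Cct8, which are 8 of the 17097 genes measured. The members are the named subunits of the complex and were not picked by level, and each was read by its brightest probe set over all 24 arrays, with 11 further probe sets as a check. The arrays hold 6 groups of 4 samples. Raptor-deficient cells came from CD4(cre)Raptor(fl/fl) mice, and were taken unstimulated, after 8 h or after 24 h of plate-bound stimulation by antibodies against CD3 and CD28. Wild-type cells, whose label also gives the strain C57BL/6, were taken in the same 3 conditions. All 6 groups were sorted from spleen and lymph nodes as naive CD4 T cells by surface markers (CD4+, CD62Lhi, CD44lo, CD25-). Raptor is the subunit that defines the kinase complex mTORC1. Cre recombinase under the Cd4 promoter is switched on while T cells develop in the thymus, so the deletion precedes sorting and also reaches CD8 T cells. The sources used here do not give the background strain of the Raptor-deficient mice, whether the wild-type mice carried Cre or floxed alleles, or whether each replicate was a different mouse. The p-values therefore refer to the scatter of these samples only, and some of it may be technical.

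CCT is a barrel of back-to-back rings, each built of 8 related but different subunits, which closes over an unfolded protein and opens again as ATP is bound and hydrolysed. Actin and tubulin depend on it for folding, as do many proteins with WD40 propellers, among them Raptor itself and the mTORC1 subunit mLST8. A naive T cell is small and makes little protein, and activation through the antigen receptor and CD28 starts growth and protein synthesis before division. In yeast, the subunits on one side of the ring, which correspond to Tcp1, Cct2, Cct4 and Cct5, bind ATP more tightly than those on the other side, which correspond to Cct3, Cct6a, Cct7 and Cct8, and the members are described below in that order.

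Array medians ran between 5.15 and 5.29 on the log2 scale, and the median of all gene values was 5.51. Rptor, the targeted gene, had 6.41, 6.27, 6.50 and 6.79 at 8 h in Raptor-deficient cells, against 7.49, 7.51, 7.57 and 7.46 in wild-type cells. Unstimulated, it had 5.92, 7.37, 6.55 and 6.79 in Raptor-deficient and 7.04, 7.49, 7.19 and 7.39 in wild-type cells, and at 24 h 6.25, 6.60, 6.45 and 6.48 in Raptor-deficient and 7.07, 6.91, 7.15 and 7.21 in wild-type cells. It differed by -0.62 unstimulated (limma, Benjamini-Hochberg adjusted p = 0.075), -1.01 at 8 h (0.000292) and -0.64 at 24 h (0.0109). The stimulated groups did not overlap, while the unstimulated ones did, and whether the probe set lies inside the deleted exon is not given in the sources used here. All 10 measured CD4 T cell markers lay above 5.51 in every group. Of 7 measured B cell markers, 7 were higher in Raptor-deficient cells at each time, with 0 passing the test unstimulated and at 8 h and 3 at 24 h. The mean of the list lay at 4.90 to 5.57 in Raptor-deficient against 4.37 to 4.63 in wild-type samples at 24 h. At that time 3 of the 7 markers had a group mean of at least 5.51 in Raptor-deficient cells, and 0 in wild-type cells. The Raptor-deficient unstimulated samples spread more than the others: the SD of the subunits in that group ran between 0.10 and 0.64, with a median of 0.22, against medians of 0.04 to 0.10 in the other 5 groups. Transcripts of liver cells averaged 7.10 in replicate 1 of Raptor-deficient cells and 6.93 in replicate 1 of wild-type cells at 24 h, against 4.67 to 4.93 in the other 22 samples.

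The start regions of the subunit genes are shown for the 3 with the largest genotype difference at 8 h and for Tcp1, chosen after their values were seen. The windows are those of RefSeq, build GRCm38.p6, and run from 250 bases before the start to 50 bases after it, 5′ to 3′ along the gene. Capitals mark matches to 6 short motifs searched on both strands, described after the sequences. Each window is 300 bases long, at chr15:31601797-31602096, minus strand for Cct5, chr5:129787106-129787405, plus strand for Cct6a, chr16:87495820-87496119, minus strand for Cct8 and chr17:12916079-12916378, plus strand for Tcp1.
Cct5: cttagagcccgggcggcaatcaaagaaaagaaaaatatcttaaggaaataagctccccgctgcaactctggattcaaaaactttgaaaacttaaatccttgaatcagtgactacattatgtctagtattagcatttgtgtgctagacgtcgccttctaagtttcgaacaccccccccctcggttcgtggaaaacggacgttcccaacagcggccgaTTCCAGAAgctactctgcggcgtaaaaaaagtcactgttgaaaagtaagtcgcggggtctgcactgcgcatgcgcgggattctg
Cct6a: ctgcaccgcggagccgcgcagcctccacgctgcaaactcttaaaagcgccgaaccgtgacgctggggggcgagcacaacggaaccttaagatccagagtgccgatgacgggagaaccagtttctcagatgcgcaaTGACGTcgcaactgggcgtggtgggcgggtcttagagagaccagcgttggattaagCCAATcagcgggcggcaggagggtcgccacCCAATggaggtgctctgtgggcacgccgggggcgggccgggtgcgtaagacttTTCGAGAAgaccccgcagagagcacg
Cct8: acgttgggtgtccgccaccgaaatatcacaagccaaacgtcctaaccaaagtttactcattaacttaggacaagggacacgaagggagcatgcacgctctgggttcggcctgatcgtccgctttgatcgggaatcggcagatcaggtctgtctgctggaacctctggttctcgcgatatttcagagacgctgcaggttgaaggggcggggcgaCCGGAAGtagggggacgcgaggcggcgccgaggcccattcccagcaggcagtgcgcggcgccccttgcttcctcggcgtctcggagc
Tcp1: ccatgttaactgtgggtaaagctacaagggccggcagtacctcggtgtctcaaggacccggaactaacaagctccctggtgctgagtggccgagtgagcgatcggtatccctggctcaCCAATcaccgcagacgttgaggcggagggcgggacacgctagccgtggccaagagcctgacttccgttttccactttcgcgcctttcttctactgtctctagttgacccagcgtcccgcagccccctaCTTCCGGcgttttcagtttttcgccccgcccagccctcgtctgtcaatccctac

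The motifs were CACGTG, the E-box bound by Myc and its relatives, GAANNTTC and TTCNNGAA, the 2 ways to pair the units of a heat shock element, the CCAAT box, the ETS family motif CCGGAAG, and TGACGT, part of the cAMP response element. Windows were given for 7 subunits, 2 of which, Cct2 and Cct5, have 2. CACGTG was in none of the windows of the 7 subunits and in 7.15% of 32851 windows of all genes. TTCNNGAA was found for Cct5, beginning 34 bases before the start, and for Cct6a, at base 25 of the transcript, and in 8.52% of all windows. GAANNTTC was found for Cct2 and in 7.86% of all windows. CCAAT, on either strand, was found for Tcp1, Cct3, Cct6a and Cct7 and in 37.4% of all windows. CCGGAAG was found for Tcp1, Cct2 and Cct8 and in 8.86% of all windows, and TGACGT for Cct6a and in 7.51%. No motif was shared by all 7, and the 3 subunits with the largest genotype difference at 8 h had no motif of this set in common. The windows were rich in CpG, with 19 to 30 per window against a median of 7 over all windows, and 47.3% to 67.7% of their bases were G or C against a median of 52.7%. A match says only that these letters are in the window.

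Stimulation of wild-type cells raised every subunit. At 8 h all 8 were higher than in unstimulated cells by the test, which 18.9% of all genes were, by 0.84 (Cct4) to 1.82 (Cct6a) on the log2 scale, or 1.79-fold to 3.52-fold, with a median of 1.27 against -0.03 for all genes. Among the tight ATP binders, Tcp1, the subunit that gave the family its name, had 11.40, 11.58, 11.48 and 11.48 at 8 h and 10.59, 10.57, 10.49 and 10.46 unstimulated, a rise of 0.96 ± 0.08 (SE). Cct2, the beta subunit, had 11.26, 11.42, 11.28 and 11.42 at 8 h and 10.34, 10.34, 10.22 and 10.36 unstimulated, a rise of 1.03 ± 0.08. For both genes, as for all 8 subunits, every stimulated sample lay above every unstimulated one, which also held for 18.9% of all genes. Cct4, the delta subunit, had 10.13, 10.19, 10.17 and 10.15 at 8 h and 9.35, 9.49, 9.17 and 9.27 unstimulated, and its rise of 0.84 ± 0.09 was the lowest estimate of the 8. Cct5, the epsilon subunit, had 10.59, 10.71, 10.74 and 10.67 at 8 h and 9.20, 9.29, 9.14 and 9.03 unstimulated, a rise of 1.51 ± 0.08. These groups did not overlap either.

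The subunits of the other side of the ring rose too, and the order of the rises was not tested. Cct6a, the zeta subunit, had 11.19, 11.42, 11.33 and 11.25 at 8 h in wild-type cells and 9.54, 9.48, 9.35 and 9.55 unstimulated, a rise of 1.82 ± 0.09 (adjusted p = 9.8e-15). Cct3, the gamma subunit, had 11.29, 11.41, 11.30 and 11.26 at 8 h and 9.57, 9.70, 9.32 and 9.50 unstimulated, a rise of 1.79 ± 0.18. Cct8, the theta subunit, had 9.83, 10.13, 10.01 and 9.90 at 8 h and 8.52, 8.48, 8.25 and 8.27 unstimulated, a rise of 1.58 ± 0.13. All 3 were far above the spread of their replicates. Cct7, the eta subunit, had 11.51, 11.63, 11.48 and 11.58 at 8 h and 10.59, 10.43, 10.57 and 10.55 unstimulated, a rise of 1.01 ± 0.12. Its second probe set rose by 1.64. Again no stimulated sample reached down to an unstimulated one.

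In wild-type cells no further change after 8 h was called. At 24 h all 8 subunits were above unstimulated cells by the test, against 25.4% of all genes higher, by 0.99 (Cct7) to 1.85 (Cct6a). Between 24 h and 8 h 0 of 8 differed by limma's test, against 28.3% of all genes in either direction, and 2 of 8 had an unadjusted p under 0.05. The differences, 24 h minus 8 h, ran between -0.09 (Cct3) and 0.22 (Cct4), with a median of 0.06. Cct4 had 10.36, 10.33, 10.43 and 10.42 at 24 h in wild-type cells, a difference of 0.22 ± 0.09 from 8 h with an adjusted p of 0.0686, and passed at 0.0391 without replicate 1 and at 0.0443 without replicate 2 of the unstimulated Raptor-deficient samples, which enter only through the shared spread. At 24 h the wild-type samples lay at 11.62 to 11.68 for Tcp1, 11.42 to 11.51 for Cct2, 10.70 to 10.87 for Cct5 and 11.52 to 11.55 for Cct7. The ranges were narrow, with SDs of 0.01 to 0.09 over the 8 subunits.

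**Figure D1:**
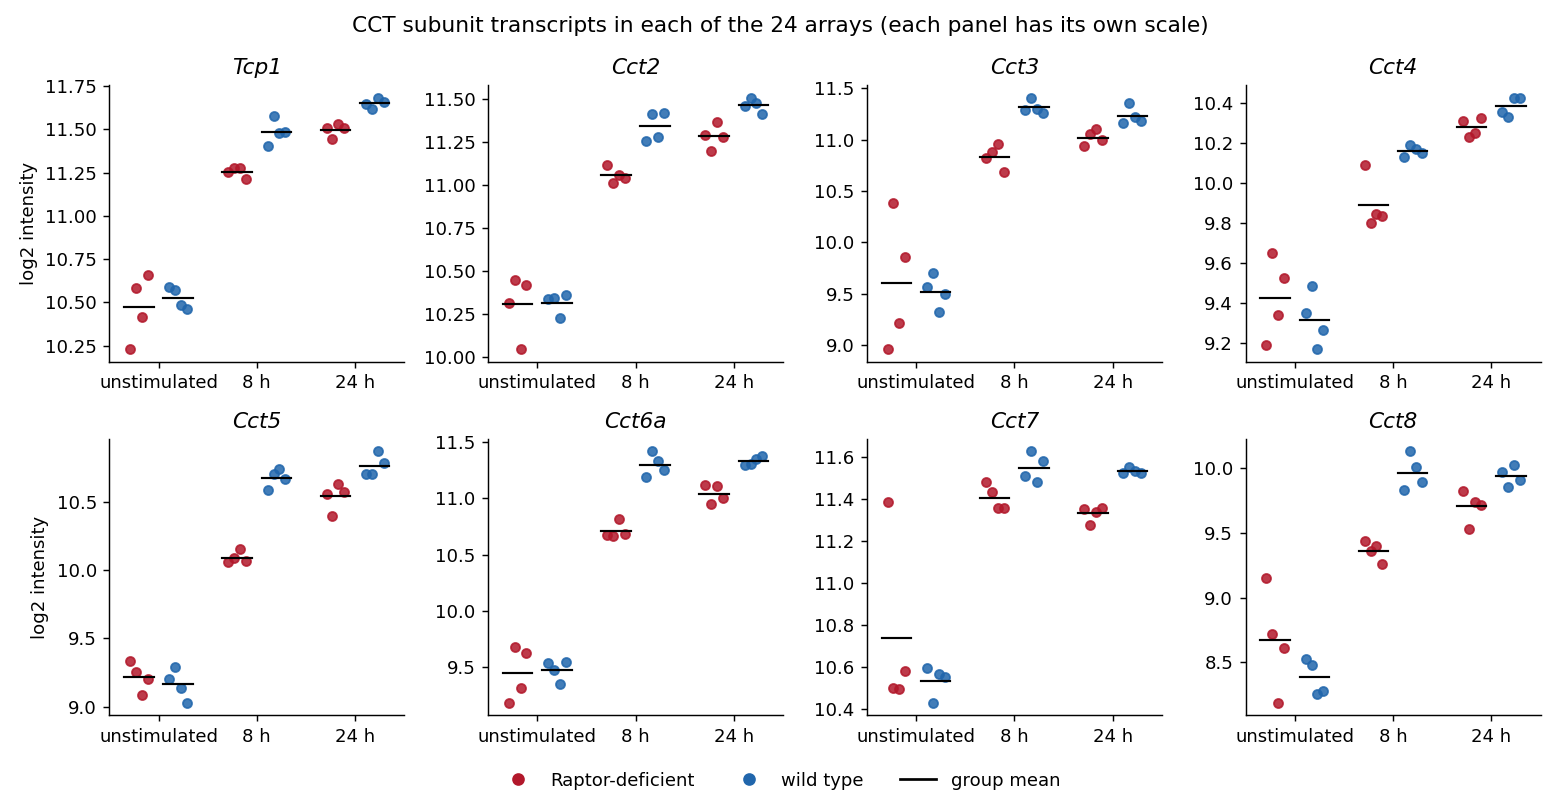
Log2 intensity of each CCT subunit in each of the 24 arrays, 1 panel per subunit with its own scale, with unstimulated cells, 8 h and 24 h along the axis, Raptor-deficient samples (red) left of wild-type samples (blue) and a bar at each group mean. In every panel the stimulated wild-type samples lie above the unstimulated wild-type ones, and at 24 h all 4 Raptor-deficient samples lie below all 4 wild-type samples for 8 of 8 subunits.

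Without stimulation the genotypes were not told apart by the 8 subunits. None of the 8 subunits passed limma's test, against 1.94% of all genes in either direction, and 1 of 8, Cct8, had an unadjusted p under 0.05. The differences, Raptor-deficient minus wild type, ran between -0.05 for Tcp1 and 0.29 for Cct8, and the groups overlapped for 8 of 8 subunits, while 3.47% of all genes lay wholly lower and 2.01% wholly higher. Cct8 had 9.15, 8.72, 8.19 and 8.61 in Raptor-deficient and 8.52, 8.48, 8.25 and 8.27 in wild-type cells, a difference with a 95% interval of 0.02 to 0.55 and an adjusted p of 0.312. Replicate 1 was the highest of the Raptor-deficient samples and replicate 3 the lowest of all 8, and without replicate 3 the difference was 0.45 and passed the test (adjusted p = 0.0227). Cct7 had 11.38, 10.50, 10.50 and 10.58 in Raptor-deficient and 10.59, 10.43, 10.57 and 10.55 in wild-type cells. Replicate 1 of the Raptor-deficient cells stood above all other unstimulated samples, at the level of stimulated cells, and without it the difference of 0.20 was -0.01. Cct3 had 8.96, 10.38, 9.22 and 9.86 in Raptor-deficient and 9.57, 9.70, 9.32 and 9.50 in wild-type cells. Raptor-deficient samples were here both the lowest and the highest of the 8. Some cell type markers did differ. By limma's test 3 of 10 CD4 T cell, 1 of 5 NK cell and 1 of 9 myeloid markers passed, and 0 of the CD8 T cell, B cell, erythroid and platelet or liver lists. The NK cell list averaged 4.15 to 4.39 in Raptor-deficient and 4.49 to 4.58 in wild-type samples. The part of these cells in the result was not tested.

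Further probe sets of Cct7 and Cct3 were set beside the brightest ones. The next probe set of Cct7 also read replicate 1 high, with 9.50, 8.47, 8.14 and 8.62 in the unstimulated Raptor-deficient samples and 8.52, 8.30, 8.35 and 8.68 in the wild-type ones. The next probe set of Cct3 had 9.05, 9.38, 9.02 and 9.45 in the Raptor-deficient and 9.18, 9.14, 9.24 and 9.34 in the wild-type samples. Its spread was far smaller than that of the brightest one, and replicates 2 and 4 were again the higher pair. The third probe set of Cct3, named like the brightest one of Cct2 as one that may match other sequences too, had 9.89 in replicate 2 and 9.40 in replicate 4 of the Raptor-deficient samples, again the higher pair. The array with the high Cct7 value, replicate 1, also had the largest residual SD over all genes, 0.280, followed by replicates 2 and 3 of the same group with 0.222 and 0.206.

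**Figure D2:**
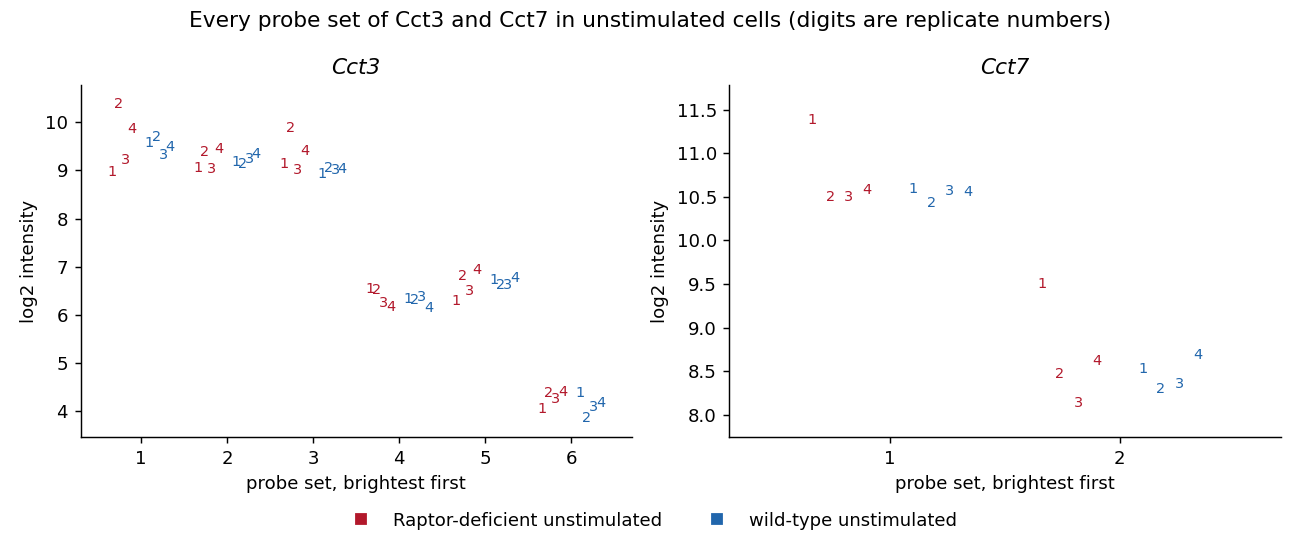
Log2 intensity of every probe set of Cct3 (6) and Cct7 (2) in unstimulated cells, with the probe sets ordered by mean along the axis, and each digit giving the replicate number of a Raptor-deficient (red, left) or wild-type (blue, right) sample. Replicate 1 of the Raptor-deficient cells stands high on both probe sets of Cct7, and the brightest probe set of Cct3 spreads more in Raptor-deficient cells than the next one.

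At 8 h 4 of the 8 subunits, Cct8, Cct6a, Cct5 and Cct2, were lower in Raptor-deficient cells by the test, against 8.77% of all genes lower, and 0 were higher, against 4.14%. All 4 Raptor-deficient samples lay below all 4 wild-type samples for 7 of 8 subunits, against 12.5% of all genes, and the median difference was -0.38 against 0.01 for all genes. In bulk RNA of sorted cells, fewer responding cells and less RNA per cell cannot be told apart. At the same time, 4 of 10 CD4 T cell markers, Cd6, Thy1, Zap70 and Cd4, were lower in Raptor-deficient cells and 1, Cd2, was higher, and the mean of that list lay at 9.74 to 9.88 in Raptor-deficient against 10.07 to 10.16 in wild-type samples. The 7 B cell markers averaged 4.72 to 5.23 in Raptor-deficient against 4.50 to 4.63 in wild-type samples, and 2 of 9 myeloid markers, S100a8 and S100a9, were higher. The CD8 T cell markers averaged 5.63 to 6.01 in Raptor-deficient against 6.14 to 6.36 in wild-type samples, and the erythroid and platelet markers 5.01 to 5.42 in Raptor-deficient against 4.73 to 4.88 in wild-type samples. The NK cell markers averaged at most 4.15 in Raptor-deficient and 4.13 in wild-type samples, and 0 genes of these 3 lists passed by limma, with 4 unadjusted p under 0.05. The part of these cells in the result was not tested.

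Among the tight ATP binders, Cct5 and Cct2 were lower in Raptor-deficient cells. Cct5 had 10.06, 10.09, 10.15 and 10.07 in Raptor-deficient cells at 8 h, against 10.59, 10.71, 10.74 and 10.67 in wild-type cells, a difference of -0.58 ± 0.08 (SE), or 1.5-fold lower (adjusted p = 9.71e-06). Cct2 had 11.11, 11.01, 11.06 and 11.04 in Raptor-deficient cells, against 11.26, 11.42, 11.28 and 11.42 in wild-type cells, a difference of -0.29 ± 0.08 (adjusted p = 0.017). For both genes the groups did not overlap. The call of Cct2 was lost without replicate 2 of the Raptor-deficient samples (adjusted p = 0.0503) and without replicate 2 (0.0609) or 4 (0.0592) of the wild-type samples at 8 h, and with cyclic loess (-0.22, 0.0669), while its second probe set was lower by 0.34 and passed (adjusted p = 0.00567). Tcp1 had 11.25, 11.28, 11.28 and 11.21 in Raptor-deficient and 11.40, 11.58, 11.48 and 11.48 in wild-type cells, a difference of -0.23 with an adjusted p of 0.0529. Cct4 had 10.09, 9.80, 9.85 and 9.84 in Raptor-deficient and 10.13, 10.19, 10.17 and 10.15 in wild-type cells, a difference of -0.27 with an adjusted p of 0.0512. Neither passed, although their groups did not overlap, and both passed with the dim filter (adjusted p = 0.0286 for Tcp1 and 0.0295 for Cct4), the intensity trend (0.0170 and 0.0308), array weights (0.00760 and 0.0139) and median centring (0.0248 and 0.0296). With the mean of all probe sets Tcp1 passed (0.0310) and Cct4 did not. The Cct4 sample nearest to wild type was replicate 1 of the Raptor-deficient cells.

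On the other side of the ring, Cct8 and Cct6a were lower in Raptor-deficient cells. Cct8 had 9.44, 9.36, 9.40 and 9.26 in Raptor-deficient cells at 8 h, against 9.83, 10.13, 10.01 and 9.90 in wild-type cells, a difference of -0.60 ± 0.13, or 1.52-fold lower (adjusted p = 0.00181). Cct6a had 10.67, 10.66, 10.82 and 10.68 in Raptor-deficient and 11.19, 11.42, 11.33 and 11.25 in wild-type cells, a difference of -0.59 ± 0.09, or 1.5-fold lower (adjusted p = 7.35e-05). The highest Raptor-deficient sample stayed below the lowest wild-type sample in both genes. Cct3 had 10.82, 10.88, 10.96 and 10.68 in Raptor-deficient and 11.29, 11.41, 11.30 and 11.26 in wild-type cells, a difference of -0.48 ± 0.18 with an adjusted p of 0.0771, and of 0.0317 with the replicate number as a block within time. These groups were apart too, and the SE came from a spread shared over all groups, to which the unstimulated Raptor-deficient samples of this probe set added most. The next 3 probe sets of Cct3 were lower by 0.49 (adjusted p = 0.000624), 0.51 (0.00639) and 0.59 (0.000334). Cct7 had 11.48, 11.43, 11.35 and 11.36 in Raptor-deficient and 11.51, 11.63, 11.48 and 11.58 in wild-type cells, a difference of -0.14 with an interval of -0.40 to 0.11 (adjusted p = 0.548). It was the only subunit whose groups overlapped, by 1 Raptor-deficient sample, replicate 1, that lay just above the lowest wild-type one. The second probe set of Cct7 had 9.68, 9.82, 9.73 and 9.66 in Raptor-deficient and 9.95, 10.24, 10.10 and 10.14 in wild-type cells at 8 h. These groups were apart, but the difference of -0.38 did not pass (adjusted p = 0.153), nor did that of -0.39 at 24 h (0.101).

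The count at 8 h moved with the model. With the stimulated samples alone in it, a setting added after the spread of the unstimulated samples was seen, 7 of 8 subunits were lower, all but Cct7, against 12.2% of all genes lower. The count was also 7 without replicate 1 or without replicate 2 of the unstimulated Raptor-deficient samples. The count was 7 with array weights, 6 with the dim filter, the intensity trend, median centring or the mean of all probe sets, 5 with the groups compared alone or the replicate block within time, and 3 with cyclic loess. The share of all genes lower also moved with the model, from 8.77% with all samples to 12.2% with the stimulated ones alone. It is not given here for the other settings, so these counts alone do not set the subunits apart from other genes. Of the 11 probe sets beyond the brightest, 4 were lower by the test, the second of Cct2 and the next 3 of Cct3, and 0 higher. The share of all probe sets lower or higher is not given here. The second probe set of Cct4, with a mean of 6.78, differed by only -0.01 at 8 h.

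**Figure D3:**
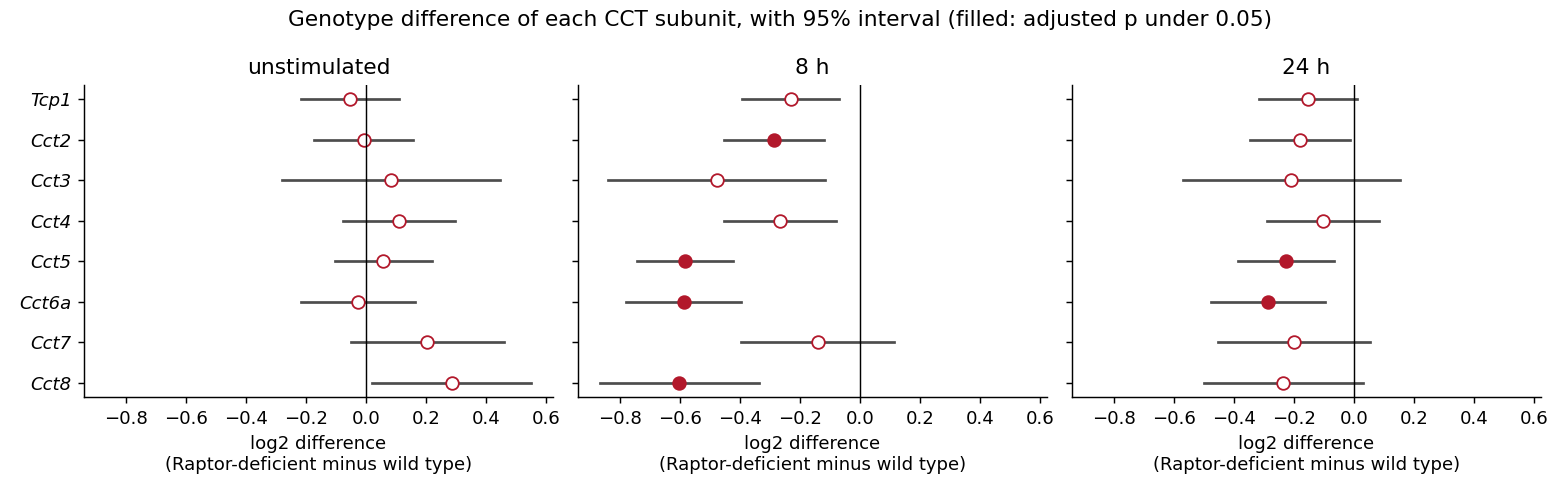
Log2 difference, Raptor-deficient minus wild type, of each CCT subunit in unstimulated cells, at 8 h and at 24 h, with lines for the 95% interval of limma and filled points where the adjusted p was under 0.05. No point is filled in unstimulated cells, while 4 are filled at 8 h and 2 at 24 h, all of them below 0.

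At 24 h the genotype difference was smaller for 7 of 8 subunits, and 2 passed the test, against 13.1% of all genes lower. Cct6a had 11.12, 10.95, 11.10 and 11.00 in Raptor-deficient cells at 24 h, against 11.29, 11.30, 11.34 and 11.37 in wild-type cells, a difference of -0.29 ± 0.09 (adjusted p = 0.0268). Cct5 had 10.56, 10.40, 10.63 and 10.57 in Raptor-deficient and 10.70, 10.71, 10.87 and 10.78 in wild-type cells, a difference of -0.23 ± 0.08 (adjusted p = 0.038). Both pairs of groups were apart, and in both Raptor-deficient replicate 2 was the lowest. The 2 calls lie near the threshold. With samples left out in turn, the difference ran over -0.31 to -0.26 for Cct6a and -0.26 to -0.18 for Cct5. Of the 8 subunits, 0 were called without Raptor-deficient replicate 2 or 4, or without wild-type replicate 3 or 4, and 1, Cct6a, without Raptor-deficient replicate 1. With both 24 h samples that held liver transcripts left out, 1 of 8 was called, again Cct6a. Cct7 was called at 24 h without replicate 1 of the unstimulated Raptor-deficient samples (adjusted p = 0.0248).

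The other 6 subunits did not pass at 24 h, with differences of -0.24 (Cct8), -0.21 (Cct3), -0.20 (Cct7), -0.18 (Cct2), -0.15 (Tcp1) and -0.10 (Cct4). All 4 Raptor-deficient samples nevertheless lay below all 4 wild-type samples for 8 of 8 subunits, against 16.5% of all genes. Cct7 had 11.35, 11.27, 11.34 and 11.36 in Raptor-deficient and 11.52, 11.55, 11.53 and 11.52 in wild-type cells at 24 h. Tcp1 had 11.51, 11.44, 11.53 and 11.51 in Raptor-deficient and 11.65, 11.62, 11.68 and 11.66 in wild-type cells. In both genes the highest Raptor-deficient sample lay below the lowest wild-type one, by a small gap. With the stimulated samples alone in the model, 6 of 8 were lower at 24 h, all but Tcp1 and Cct4, against 16.0% of all genes lower. The median over the 8 was -0.20, against 0.01 for all genes. At 24 h, 1 of 10 CD4 T cell markers was lower in Raptor-deficient cells and 1 higher, Thy1 and Cd2. Of the markers of other cells, 3 B cell genes, the platelet integrin Itga2b (0.39, adjusted p = 0.0213) and the myeloid lysozyme Lyz2 were higher. The share of all genes higher at 24 h was 10.6% with the stimulated samples alone in the model. It is not given here for the model of all samples.

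Raptor-deficient cells raised all 8 subunits too, and at 8 h 3 of them by less than wild-type cells by the test. At 8 h all 8 were above unstimulated Raptor-deficient cells by the test, against 16.0% of all genes, by 0.46 (Cct4) to 1.26 (Cct6a), and at 24 h all 8 were, against 21.6%, by 0.59 (Cct7) to 1.59 (Cct6a). For Cct7 the stimulated and unstimulated Raptor-deficient samples overlapped at both times, through replicate 1 of the unstimulated ones (11.38). Set against the wild-type rise, that of Raptor-deficient cells came to between 43.9% (Cct8) and 81.5% (Tcp1) of it on the log2 scale at 8 h, with a median of 67.2%. At 24 h it came to between 59.4% (Cct7) and 91.1% (Tcp1), with a median of 82.6%. The place of Cct7 depends on replicate 1 of the unstimulated Raptor-deficient samples. Without that sample the Raptor-deficient rise of Cct7 was 0.88 at 8 h and 0.80 at 24 h, instead of 0.67 and 0.59. Single samples also moved the Raptor-deficient 8 h rise of Cct8 and Cct3. With samples left out in turn it ran over 0.53 to 0.86 for Cct8 (0.70 with all) and 1.02 to 1.49 for Cct3 (1.23 with all). The genotype difference in the 8 h response passed the test for 3 of 8 subunits, against 4.36% of all genes lower. It was -0.89 ± 0.18 for Cct8 (adjusted p = 0.0037), -0.64 ± 0.11 for Cct5 (0.000744) and -0.56 ± 0.13 for Cct6a (0.0103). The other 5 did not pass, with adjusted p-values of 0.162 (Cct2), 0.204 (Cct3), 0.0799 (Cct4), 0.281 (Cct7) and 0.416 (Tcp1). The 3 were also the subunits with the largest genotype difference at 8 h, with which the response shares its 8 h samples. The count was 5, with Cct3 and Cct4 added, without replicate 1 of the unstimulated Raptor-deficient samples.

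For the 24 h response, 0 of 8 subunits differed between genotypes by limma's test, against 13.3% of all genes in either direction, and 3 of 8 had an unadjusted p under 0.05. Cct8 came nearest, at -0.52 ± 0.18 (adjusted p = 0.0587), and passed at 0.00271 without replicate 3 of the unstimulated Raptor-deficient samples, where 2 of 8 were called. The change in the genotype difference between 8 h and 24 h passed for 0 of 8, against 4.53% of all genes in either direction, with 2 of 8 at an unadjusted p under 0.05. Cct5 had the largest, 0.36 ± 0.11 (adjusted p = 0.0656), which passed without replicate 1 of the unstimulated (0.0466) or replicate 2 of the 24 h (0.0377) Raptor-deficient samples. With all samples in the model, the smaller gap at 24 h was thus not separated from the spread between replicates.

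**Figure D4:**
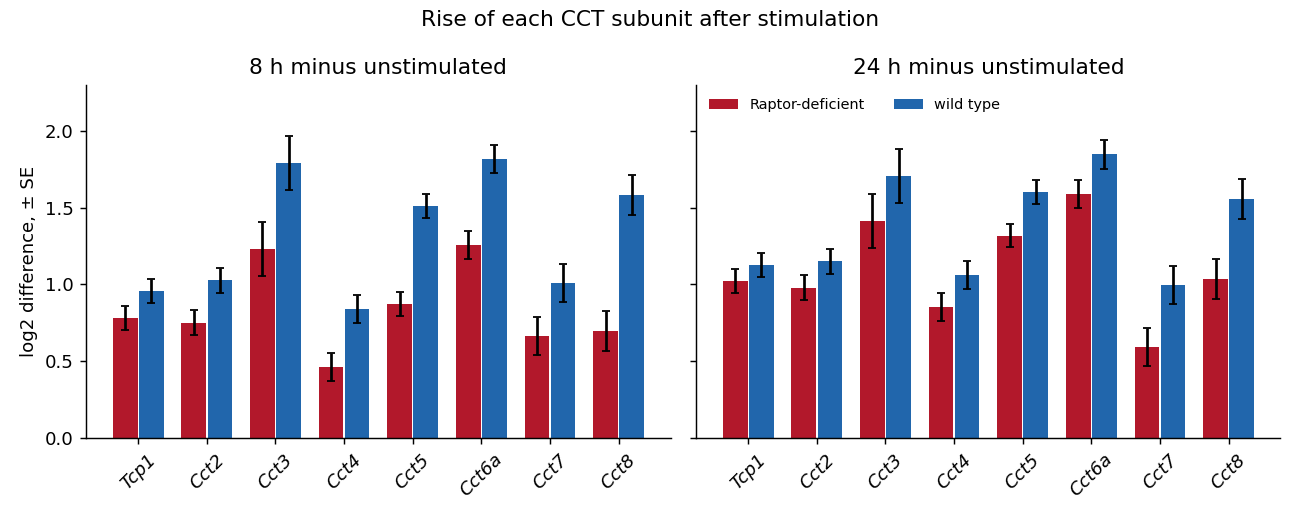
Rise of each CCT subunit over unstimulated cells of the same genotype on the log2 scale, at 8 h and at 24 h, as bars from 0 with the SE of limma, Raptor-deficient (red) left of wild type (blue). Every bar is above 0, and the Raptor-deficient bar is the shorter of the pair for each of the 8 subunits at both times.

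Between 8 h and 24 h Raptor-deficient cells went on raising part of the complex. Of the 8 subunits, 5 were higher at 24 h than at 8 h by the test, against 15.2% of all genes higher. The differences were 0.45 ± 0.08 for Cct5 (adjusted p = 8.59e-05), 0.39 ± 0.09 for Cct4 (0.00208), 0.33 ± 0.09 for Cct6a (0.00926), 0.24 ± 0.08 for Tcp1 (0.0253) and 0.23 ± 0.08 for Cct2 (0.042). The call of Cct4 was lost with the mean of its probe sets (0.09, adjusted p = 0.585), and its next probe set differed by -0.15. Cct8 had 9.83, 9.53, 9.74 and 9.72 at 24 h in Raptor-deficient cells, above all its 8 h samples, a difference of 0.34 with an adjusted p of 0.0577. Cct3 differed by 0.18 and Cct7 by -0.08, neither of which passed. The calls of Tcp1 and Cct2 were lost, which left 3 of 8, without replicate 4 of the 8 h or without replicate 1, 3 or 4 of the 24 h Raptor-deficient samples. The call of Cct2 was also lost without replicate 2 or 3 of the 8 h samples, and Cct8 passed without replicate 1 (adjusted p = 0.0135) or 3 (0.0161) of the unstimulated ones, or without replicate 2 of the 24 h ones (0.0414). The test that sets this rise against that of wild-type cells is the change in genotype difference given above, which passed for 0 of 8.

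Ordered by level over the 6 groups, the unstimulated groups were the lowest 2 for every subunit, and the highest was a stimulated wild-type group for every subunit, at 24 h for Tcp1, Cct2, Cct4, Cct5 and Cct6a and at 8 h for Cct3, Cct7 and Cct8. Among the 5 pairs of neighbours in this order, 1 or 2 differed by the test for any subunit. The step between the unstimulated groups and the lowest stimulated group, Raptor-deficient cells at 8 h for 7 subunits and at 24 h for Cct7, differed for all 8. The step between Raptor-deficient cells at 24 h and at 8 h was the other one, for Cct2, Cct5 and Cct6a. Raptor-deficient cells at 24 h and wild-type cells at 8 h, which were neighbours for 5 subunits, did not differ by limma's test for any of the 8, against 18.1% of all genes in either direction, with 1 unadjusted p under 0.05. The Raptor-deficient samples at 24 h nevertheless lay wholly below the wild-type ones at 8 h for 4 subunits, Cct3, Cct6a, Cct7 and Cct8, against 10.5% of all genes, and wholly above for Cct4, against 12.8%. For Cct6a, the means were 11.04 ± 0.08 in Raptor-deficient cells at 24 h and 11.30 ± 0.10 in wild-type cells at 8 h (SD, n = 4 each), with an adjusted p of 0.0564 by limma.

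Over the 24 arrays the subunits followed each other closely. Pearson's r between pairs of the 8 ran between 0.79 and 0.99 with a median of 0.957 over 28 pairs, and the points share the 6 groups and, for each array, its RNA and scaling. After each group's mean was taken off, r had a median of 0.37 and ran between -0.63 (Tcp1 and Cct7) and 0.84 (Tcp1 and Cct6a). The 4 lowest values all paired another subunit with Cct7, which held the single high sample. In some arrays of several groups the subunits lay mostly on 1 side of their group means. In unstimulated Raptor-deficient cells 7 of 8 lay above in replicate 2, by 0.17 on average, and 0 of 8 in replicate 3, by -0.22 on average. In wild-type cells 8 of 8 lay above in replicate 1 unstimulated and replicate 2 at 8 h, and 0 of 8 in replicate 1 at 8 h. In Raptor-deficient cells at 8 h 0 of 8 lay above in replicate 4. The share of all genes above their group mean in these arrays is not given here.

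Of 8656 other genes with a mean at or above 5.51, the 5 most like the mean of the subunits over the 24 arrays were Ppid (r = 0.994), Prmt1 (0.993), Mrpl12 (0.993), Psmd14 (0.993) and Kars (0.992). Ppid is a cyclophilin that binds Hsp90, Prmt1 an arginine methyltransferase, Mrpl12 a protein of the mitochondrial ribosome, Psmd14 a deubiquitinating subunit of the proteasome and Kars the lysyl-tRNA synthetase. These genes were picked for likeness over the same arrays, so their 8 h values are not a separate result. Ppid averaged 9.37 ± 0.07 in Raptor-deficient and 9.92 ± 0.09 in wild-type cells at 8 h (SD, n = 4 each). Kars averaged 8.16 ± 0.12 in Raptor-deficient and 8.98 ± 0.14 in wild-type cells at 8 h. Ranked by Spearman's rho, Kars came first and 2 of the 5, Kars and Psmd14, were among the first 5.

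The partners of CCT were read beside it at 8 h, where 8.77% of all genes were lower. Prefoldin, the complex that hands unfolded actin and tubulin to CCT, had 3 of 6 measured subunits lower in Raptor-deficient cells, Pfdn1 (-0.63, adjusted p = 0.000436), Pfdn4 (-0.63, 0.000722) and Pfdn6 (-0.39, 0.019). Pfdn1 had 8.81, 8.93, 8.94 and 9.03 in Raptor-deficient and 9.43, 9.60, 9.60 and 9.61 in wild-type cells at 8 h. The groups were apart. In wild-type cells at 8 h, where 18.9% of all genes rose, Pfdn1 and Pfdn4 rose by 1.33 and 1.56, 2 of the 4 prefoldin subunits that rose. The other 3, Vbp1, Pfdn2 and Pfdn5, differed between genotypes by -0.14, -0.20 and 0.18 and did not pass. Of 4 phosducin-like cofactors, which bind CCT and modulate folding on it, 2 were lower, Txndc9 (-0.44, adjusted p = 0.00979) and Pdcl3 (-0.34, 0.0161). Of 6 tubulin cofactors, which take tubulin after CCT, 2 were lower, Tbcb (-0.55, 8.38e-05) and Tbca (-0.28, 0.00638). No member of these 3 lists was higher.

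Of 11 actin and tubulin genes, the best known substrates of CCT, 1 was lower at 8 h, a share near that of all genes (8.77%). Tubb4b, a beta tubulin, had 9.27, 9.04, 9.16 and 9.16 in Raptor-deficient cells, against 10.07, 10.10, 9.97 and 9.96 in wild-type cells, a difference of -0.87 ± 0.09 (adjusted p = 1.25e-07). Its groups were far apart, and the other 10 did not pass, with a list median of -0.13. Stimulation itself moved these genes both ways in wild-type cells at 8 h, where 4 rose, among them Tuba1c (1.63) and cytoplasmic gamma actin Actg1 (1.04), and 3 fell, among them Tuba1a (-0.96). In that comparison 18.9% of all genes rose, and the share that fell is not given here. Of 10 genes of WD40 and other substrates, 2 were lower at 8 h, Rptor and the ubiquitin ligase subunit Vhl (-0.29, adjusted p = 0.0247). Rptor is the gene deleted by design, so its place in that count is not a result about substrates. Mlst8, the other mTORC1 subunit of that list, differed by 0.08 and did not pass.

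The cytosolic Hsp70 and Hsp90 system had a median of -0.41 at 8 h. Of its 15 genes, 7 were lower, against 8.77% of all genes, and 0 higher, against 4.14%. They included the Hsp70 exchange factor Hspa4 (-0.46, adjusted p = 5.34e-05), the Hsp90 activator Ahsa1 (-0.62, 6.6e-05), the constitutive Hsp70 Hspa8 (-0.41, 8.09e-05) and Hsp90aa1 (-0.47, 0.000802). Ahsa1 had 9.20, 9.18, 9.15 and 9.18 in Raptor-deficient and 9.67, 9.83, 9.81 and 9.89 in wild-type cells. The 4 Raptor-deficient samples were nearly equal, and all lay below the wild-type ones. In the mitochondrion, 2 of 4 genes of the chaperonin and Hsp70 system were lower, the Hsp70 exchange factor Grpel1 (-0.55, adjusted p = 0.000305) and the chaperonin lid Hspe1 (-0.53, 0.000424). In wild-type cells at 8 h, 11 of the 15 cytosolic genes rose, against 18.9% of all genes, and 1 fell. The share of all genes that fell is not given here. The cytosolic genes that rose included Hspa4l (2.42) and Hsph1 (1.86), both of the Hsp110 family. Of the mitochondrial genes 4 of 4 rose, Hspe1 by 2.36. Of tissue-specific and chaperonin-like relatives of the subunits, Cct6b, Cct8l1, Mkks, Bbs10 and Bbs12, 0 of 5 differed between genotypes at 8 h by limma, with 0 unadjusted p under 0.05, and 1, Bbs12, rose at 8 h in wild-type cells (0.92).

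**Figure D5:**
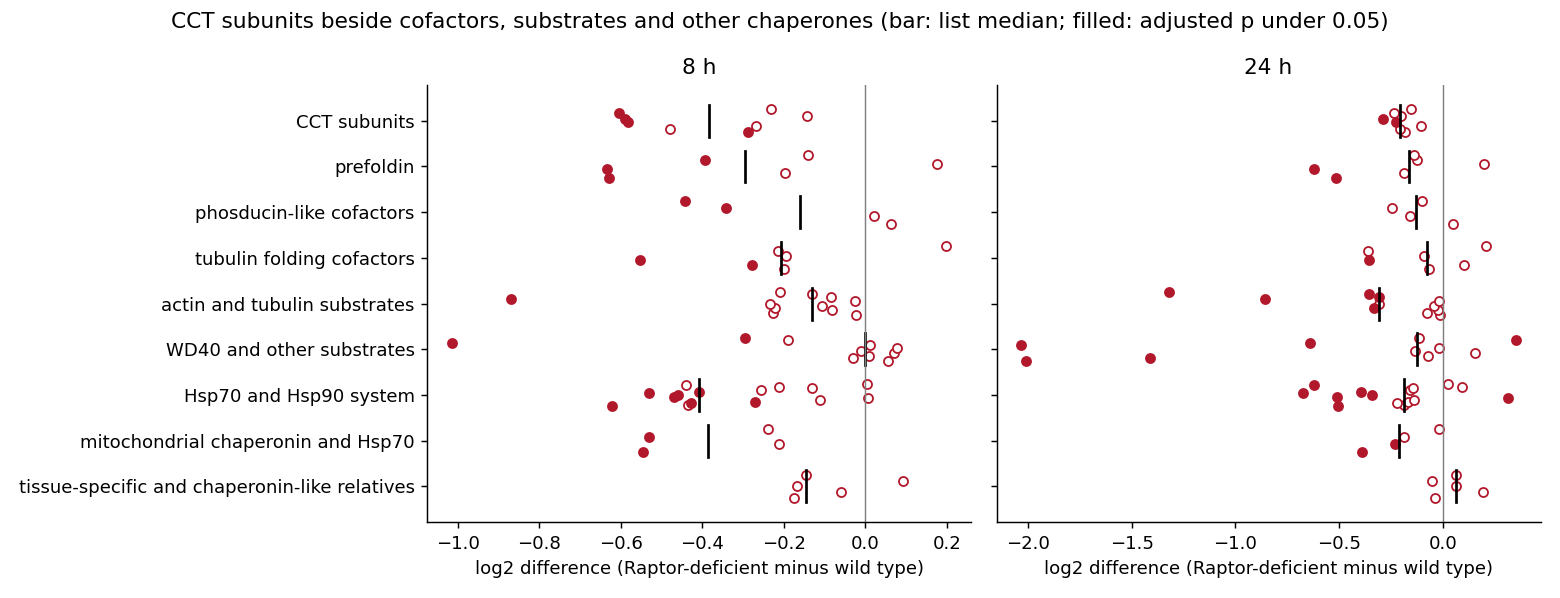
Log2 difference, Raptor-deficient minus wild type, at 8 h and at 24 h, for each gene of the CCT subunits and of 8 related lists, with a bar at each list's median and filled points where the adjusted p was under 0.05. The axes of the panels differ. At 8 h the median of the CCT subunits is -0.38 and that of the Hsp70 and Hsp90 system -0.41, and at 24 h the widest differences are among the substrates, down to -2.03.

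At 24 h 13.1% of all genes were lower, to be read beside each count. For single genes named as higher, the share of all genes is that given above, 10.6% with the stimulated samples alone. Of prefoldin 2 of 6 were lower, Pfdn4 (-0.62, adjusted p = 0.000433) and Pfdn1 (-0.51, 0.00175), while 0 of 4 phosducin-like cofactors passed by limma, with 1 unadjusted p under 0.05, and 1 of 6 tubulin cofactors, Tbcb (-0.36, 0.00364), did, a share near that of all genes. Of the Hsp70 and Hsp90 system, 6 of 15 were lower, among them Hspa8 (-0.39), Hsp90aa1 (-0.51), Ahsa1 (-0.50) and Hspa4l (-0.68), and 1, Dnajc7, was higher (0.31). Of the mitochondrial list, 2 of 4 were lower, Grpel1 (-0.39) and Hspa9 (-0.23). The widest differences were among the substrates. Of actin and tubulin genes 5 of 11 were lower, led by the centrosomal gamma tubulin Tubg1 with 6.62, 6.34, 6.32 and 6.56 in Raptor-deficient and 7.81, 7.63, 7.81 and 7.87 in wild-type cells, a difference of -1.32 ± 0.12 (adjusted p = 2.19e-09). Tubb4b (-0.86), Tuba1b (-0.33) and Tubb5 (-0.31) were also lower. Of the WD40 and other substrates 4 of 10 were lower and 1, Stat3, was higher (0.35). Those lower were cyclin E Ccne1 (-2.01), the mitotic kinase Plk1 (-2.03), the mitotic WD40 activator Cdc20 (-1.41) and Rptor, the gene deleted by design. Vbp1, Pfdn5, Mlst8, Dnajc7, Stat3 and the marker genes were named after their values were seen.

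Genes that start close to a subunit on the opposite strand were read as well, a set chosen after the annotation and the values were seen. RefSeq gives such a start within 1500 bases for 6 of the 7 subunits, and 5 of these neighbours were measured. Mrpl18, a mitochondrial ribosomal protein whose start lies 238 bases from that of Tcp1, averaged 8.16 ± 0.03 in Raptor-deficient and 8.94 ± 0.04 in wild-type cells at 8 h (SD, n = 4 each), a difference of -0.79 (adjusted p = 2.33e-07). Psph, the last enzyme of serine synthesis, 103 bases from Cct6a, differed by -0.75 (2.82e-05), and Pradc1, 203 bases from Cct7, by -0.62 (0.000767). Psph was already lower in unstimulated Raptor-deficient cells (-0.41, 0.0449), and its difference in the 8 h response did not pass (-0.34, 0.219), while those of Mrpl18 (-0.62, 0.00149) and Pradc1 (-0.85, 0.00315) did. At 24 h they differed by -1.04, -1.19 and -0.85, again called, where Tcp1 and Cct7 were not. Atpsckmt, 270 bases from Cct5, differed by 0.19 and did not pass, and B130034C11Rik, 204 bases from Cct8, lay near background in every group. Mrpl18 rose by only 0.45 in wild-type cells at 8 h but by 1.83 at 24 h, whereas Tcp1 rose by 0.96 and 1.12.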

How the data were processed

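RNA of 24 samples was hybridised to single-colour mouse expression arrays. Per the submitters' processing notes, which name RMA and Partek 6.5, the deposited values are RMA log2 intensities for 45141 probe sets, taken here without further scaling. RMA, which corrects background, normalizes by quantiles and summarises probes, makes the distributions of the arrays alike, so a change shared by most genes would not be seen. Precision is set by having 4 arrays a group. Of the probe sets, 28898 had 1 gene in the platform annotation, 551 several and 15692 were not listed there. Each of the 17097 genes was represented by its brightest probe set, by mean of the 24 arrays. Levels of different probe sets were not set against each other.

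limma 3.58.1 in R 4.3.3 fitted 6 group means to all genes with eBayes, and p-values were adjusted by Benjamini-Hochberg within each comparison over all genes, two-sided, with a threshold of 0.05. The script was tested on simulated data. The text names all 8 subunits, Rptor, up to 4 called genes with the smallest p of each other list in each of 3 comparisons, and the 5 genes most like the subunits. The members and lists were chosen with earlier results of these data known. Alternatives changed the probe set, the filter on dim probes, weights, scaling, variance model, samples in the model and the replicate number as a block. Tuba4a, Tubb2b, Hdac3, Ppp2r2a, Hsp90ab1, Fkbp4, Hsf1 and Hspd1 are not analysed here.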

Additional observations from a re-analysis of the deposited data

Results flagged for a closer look

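In 4 of the 48 sets of 4 samples looked at, 1 sample lay far from the others by Dixon's criterion at the 95% level, which chance alone meets in about 1 in 20 sets. Cct7 had 11.38 in replicate 1 of the unstimulated Raptor-deficient cells, where the other 3 samples had 10.50 to 10.58. Cct4 had 10.09 in replicate 1 of the Raptor-deficient cells at 8 h, where the others had 9.80 to 9.85. Cct6a had 10.82 in replicate 3 of the Raptor-deficient cells at 8 h, where the others had 10.66 to 10.68. Cct2 had 10.22 in replicate 3 of the unstimulated wild-type cells, where the others had 10.34 to 10.36.

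The response to 8 h of stimulation differed between the genotypes by the interaction test of limma for 3 subunits, and was smaller in Raptor-deficient cells, with a difference of -0.89 for Cct8, -0.64 for Cct5 and -0.56 for Cct6a on the log2 scale.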

How the results depend on the processing

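Of 4126 values recomputed under alternatives, 3929 kept their direction and their side of the threshold or, for counts, stayed within 1.5 times. The cause of the changes was not tested. Of the 34 values that changed sign, 0 passed the test under the alternative, between -0.38 and 0.37, and 1 had passed before it, Cct4 at 24 h against 8 h in Raptor-deficient cells (0.39). Leaving out each sample in turn gave 3 to 7 subunits lower at 8 h, 0 to 3 lower at 24 h and 0 to 1 higher unstimulated in Raptor-deficient against wild-type cells, 3 to 5 in the 8 h response, 0 to 2 in the 24 h response, 0 to 1 for the change in genotype difference between 8 h and 24 h, 3 to 6 higher at 24 h than at 8 h in Raptor-deficient cells and 0 to 1 in wild-type cells. Shares of all genes called are not given here for the alternatives, apart from the models of only the stimulated samples. Array weights gave 7 lower at 8 h, 4 at 24 h, 5 in the 8 h response and 2 in the 24 h response. Models of only the groups compared gave 4 lower at 24 h. Models of only the stimulated samples, chosen after seeing the data, gave 7 at 8 h and 6 at 24 h, against 12.2% and 16.0% of all genes lower. They also gave 2 of 8 higher at 24 h than at 8 h in wild-type cells, near the share of all genes, 19.6%. Median centring, cyclic loess and the omission of both 24 h samples numbered 1 each gave 1 lower at 24 h and 3 higher at 24 h than at 8 h in Raptor-deficient cells. For wild-type cells at 24 h against 8 h, 1 was higher with the dim filter, array weights, the intensity trend or only the groups compared. In the 24 h response 1 was lower with the dim filter, the intensity trend or the replicate block within time. For the change in genotype difference between 8 h and 24 h, 1 was higher with the mean of all probe sets, the dim filter, array weights, the intensity trend, only the groups compared or only the stimulated samples. TTCNNGAA was found for 1 subunit within the 250 bases before the start. With the mean of all probe sets, the unstimulated difference of Cct2 was 0.0125, the 24 h difference of Cct4 0.0065, and 24 h minus 8 h 0.0347 for Cct3, -0.11 for Cct4 and 0.0524 for Cct7 in wild-type and 0.019 for Cct7 in Raptor-deficient cells. With the next brightest probe set, the unstimulated difference was -0.0012 for Cct3 and -0.15 for Cct4, the 24 h difference of Cct4 0.22, its 8 h response difference 0.14 and its 24 h one 0.37. That probe set gave 24 h minus 8 h of 0.0144 for Cct3, -0.38 for Cct4 and 0.12 for Cct7 in wild-type cells, and -0.15 for Cct4 and 0.11 for Cct7 in Raptor-deficient cells. Array weights turned the unstimulated differences of Tcp1 (0.0281), Cct2 (0.0276) and Cct6a (0.0566), and median centring those of Cct2 (0.0223) and Cct6a (0.0034) and the 24 h minus 8 h difference of Cct6a in wild-type cells (-0.0446). With samples left out in turn, the unstimulated difference ran over -0.12 to 0.0262 for Tcp1, -0.0569 to 0.0783 for Cct2, -0.17 to 0.30 for Cct3, -0.10 to 0.0605 for Cct6a and -0.0103 to 0.29 for Cct7, and 24 h minus 8 h in wild-type cells over -0.0047 to 0.0709 for Cct6a, -0.0403 to 0.0092 for Cct7 and -0.0721 to 0.0288 for Cct8.

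Samples of the same number deviated together with correlations of 0.02 to 0.25, over 0.1 in 6 of 12 pairs, and in 9 of 12 pairs a sample matched its own number best, a hint from the data and not the design. Since not every pair was over 0.1, the numbers were not taken as pairs. With the replicate block, 4 subunits were lower at 8 h, 2 at 24 h, and 3 in the 8 h response, and 5 were higher at 24 h than at 8 h in Raptor-deficient cells. With the block within time 5 were lower at 8 h, as Cct3 passed (adjusted p = 0.0317), and 1 in the 24 h response, Cct8 (0.0201). The comparison of protein sequences between subunits was not run.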
